A study of Mus musculus with 18 samples.

Results

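The synucleins and stathmins measured here are 6 genes: the synucleins Sncg and Sncb and the stathmins Stmn1, Stmn2, Stmn3 and Stmn4. They were taken by name from the 12394 genes on the array, with all 9 of their probe sets. They were chosen by the measured values of a pair of them: Sncg was high in trisomy 1 and trisomy 13, and Stmn2 separated trisomy 13 from trisomy 16. Values of the members in those comparisons are therefore given as a description, with no test. Tests against controls are given for Stmn1 in trisomies 16 and 19 and for Stmn2 in trisomy 19. Stmn2 in trisomy 16 entered the choice, and Sncg passed the filter on low values only through lines in which it was high, so neither has a test there.

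Gene expression was measured in 18 mouse embryo fibroblast (MEF) lines, connective tissue cells grown from embryos, on 1 Affymetrix array each. The lines had 3 copies of chromosome 1 (1 line), of chromosome 13 (4 lines), of chromosome 16 (3 lines) or of chromosome 19 (1 line), against 9 lines with a normal complement of chromosomes. All were cultured alike for 2 passages; the labels used here give no strain, sex or embryo age. The lines are described as different, with no word on the embryos behind them, and each p-value reflects line-to-line spread, which may in part be technical. Line titles begin with a number that trisomic and control lines share, and its meaning is not stated.

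Synucleins are small soluble proteins that bind membranes. Beta-synuclein (Sncb) is mainly a protein of presynaptic terminals, and gamma-synuclein (Sncg) is found in peripheral and sensory neurons, in fat cells and in several tumours. Stathmins bind tubulin dimers and so favour the shrinking of microtubules. Stathmin (Stmn1) is cytosolic and abundant in dividing cells, where mitotic kinases phosphorylate it, whereas Stmn2 (SCG10), Stmn3 (SCLIP) and Stmn4 (RB3) are membrane-anchored and best known from neurons.

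Of the 6 genes, 1 lies on a chromosome that was present in an extra copy. Sncb is on mouse chromosome 13 (chr13:54758860-54766622 in assembly GRCm38.p6). Sncg is at chr14:34370274-34374669 and Stmn4 at chr14:66344210-66361680. Stmn1 is at chr4:134468320-134473843, Stmn2 at chr3:8509527-8561604 and Stmn3 at chr2:181306459-181314500. The RefSeq promoter table holds 3 of the genes, as 250 bases before and 50 after the annotated start. The synuclein promoters are shown because Sncg was above background in part of the lines and Sncb, which has an extra copy in trisomy 13, was in none. Both are written on the gene's strand from 5′ to 3′, and capitals mark CG dinucleotides. The window of Sncg is chr14:34374620-34374919 and that of Sncb is chr13:54766546-54766845, both on the minus strand.
Sncg: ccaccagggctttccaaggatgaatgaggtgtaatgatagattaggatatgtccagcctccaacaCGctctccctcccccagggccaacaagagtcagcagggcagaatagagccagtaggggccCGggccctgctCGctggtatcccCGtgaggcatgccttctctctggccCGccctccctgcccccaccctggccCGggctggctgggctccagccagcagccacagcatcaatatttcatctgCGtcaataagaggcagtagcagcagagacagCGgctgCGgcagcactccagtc
Sncb: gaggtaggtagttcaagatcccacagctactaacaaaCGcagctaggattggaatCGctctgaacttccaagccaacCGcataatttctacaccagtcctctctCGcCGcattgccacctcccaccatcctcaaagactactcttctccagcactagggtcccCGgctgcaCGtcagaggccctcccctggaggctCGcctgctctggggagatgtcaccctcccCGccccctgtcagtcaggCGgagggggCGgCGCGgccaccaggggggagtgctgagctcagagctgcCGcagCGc
The Sncg window had 9 CG dinucleotides, more than in 54.2% of the 32851 promoter windows of the same length. The Sncb window had 15, more than in 65.4% of them. Searched on both strands, the GC box GGGCGG was found 1 time in Sncg and 2 times in Sncb, and 35.7% of all windows held it. The letters CANNTG were found 1 time in Sncg and 0 times in Sncb, against 72.3% of all windows with a match, and TATAAA was in neither (13.6% of all windows). CANNTG reads the same on both strands, and overlap between matches of different motifs was not examined. A match is only a run of letters, and none was set against the expression values.

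Arrays differed in RNA quality. On trisomy 13 replicates 3 and 4 and trisomy 16 replicate 1, the Gapdh control probe set at the 3' end exceeded that at the 5' end by 5.57 to 6.94 on the log2 scale, against -0.20 to 1.41 on the other 15 arrays. They are called 3'-biased arrays below, and their median signal was 5.11 to 5.29, against 5.62 to 5.91. All 13 fibroblast markers were above the filter level of 4 (the mean log2 value a gene needed to be tested). Correlations between arrays over all probe sets ran from 0.915 to 0.997. The deposited values are GCRMA log2 expression values, of which 44.5% in the whole table lie under 4, a range called near background here. Arrays carry no counting depth, and their number limits the precision.

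**Figure D1:**
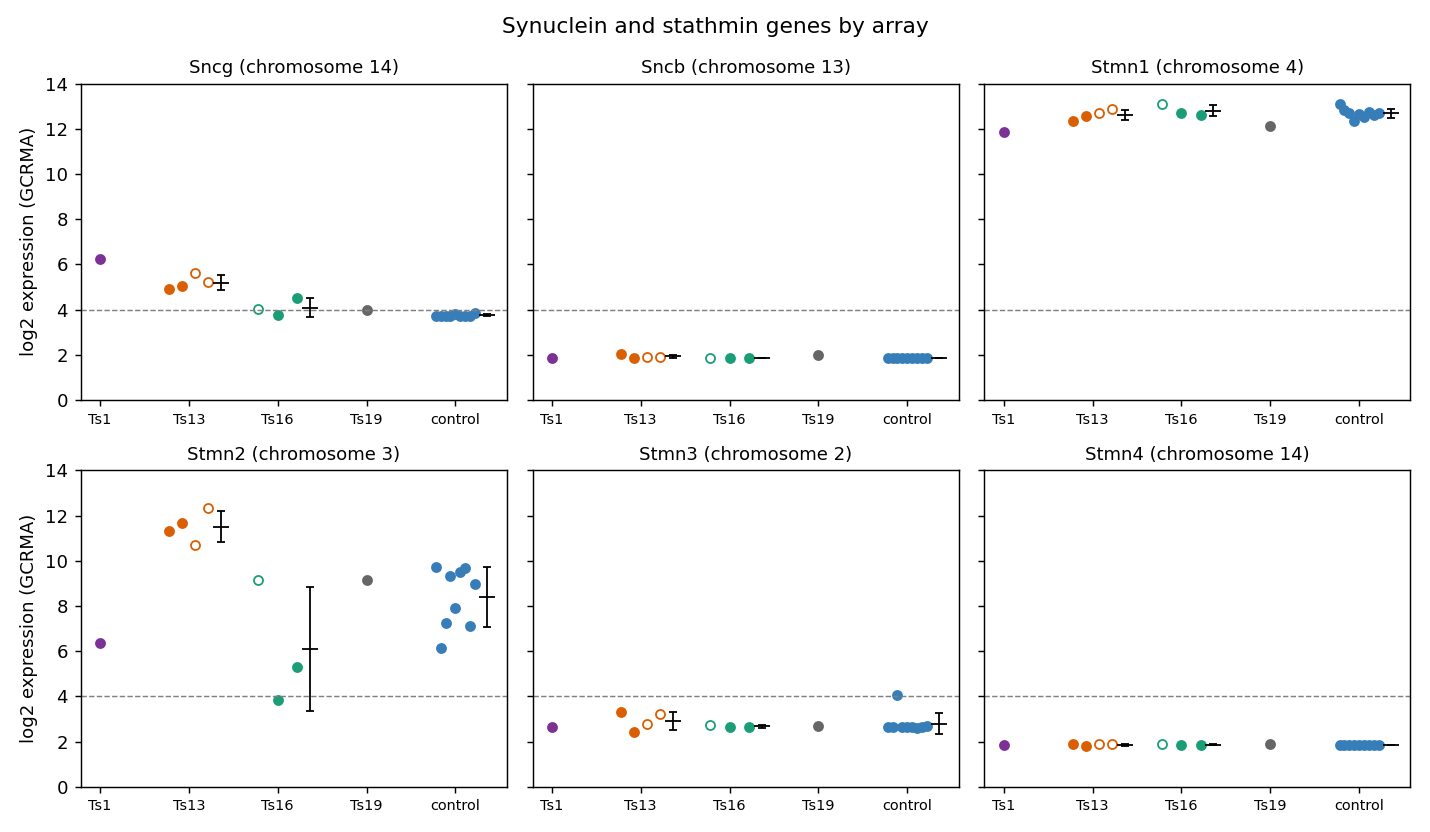
Log2 expression (GCRMA) of the 6 genes, for the probe set with the highest mean, by group (Ts1, Ts13, Ts16, Ts19 for trisomies 1, 13, 16 and 19); each circle is an array, open circles are 3'-biased arrays, bars give the mean and SD, and the dashed line is the filter level of 4. Sncg was at 4.89 to 5.63 in trisomy 13 and at 6.26 in trisomy 1, against 3.71 to 3.84 in controls, and Stmn2 at 10.70 to 12.35 in trisomy 13, against 3.83 to 9.13 in trisomy 16.

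Among the synucleins, Sncg had a signal at background in every control line and above it in trisomy 1 and trisomy 13. Its log2 value was 6.26 in trisomy 1, and 4.89, 5.04, 5.63 and 5.24 in the 4 trisomy 13 lines. Controls ran from 3.71 to 3.84, with a median of 3.74. The arrays of trisomies 1 and 13 all lay above every control, and the lowest trisomy 13 array exceeded the highest control by 1.05. The controls varied by only 0.04 (SD, n = 9).

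The difference was 2.51 ± 0.37 for trisomy 1 minus control and 1.45 ± 0.21 for trisomy 13 minus control (log2, SE of the fit; n = 1 and 4 against 9). On the linear scale these are 5.69-fold and 2.73-fold, but since controls are at background the sizes are not well measured. By size, the rise ranked 36 from the top among 7382 genes in trisomy 1 and 111 in trisomy 13. Without the 3'-biased arrays the trisomy 13 difference was 1.22, from the lines at 4.89 and 5.04. In trisomy 13, 1.77% of tested genes had all arrays above all controls, and in trisomy 1, with a single array, 14.5% did. Each of these shares is a background for the description of Sncg and not a test of it. Sncg reached the filter only through the groups in which it was high: it was at or above 4 on 7 of 18 arrays and on 0 of 9 controls.

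In the groups that did not enter the choice, Sncg was close to background. Trisomy 16 lines had 4.01, 3.75 and 4.53, and the trisomy 19 line had 4.00. Of these 4 arrays 3 were above the highest control, and trisomy 16 replicate 2 was within the control range. In trisomy 19, 6.16% of tested genes had the single array above all controls, and in trisomy 16 6.64% had at least 2 of 3 arrays above them. The difference from controls was 0.35 ± 0.23 in trisomy 16 (n = 3 against 9) and 0.25 ± 0.37 in trisomy 19 (n = 1 against 9), given as a description. Both comparisons share their controls with those of trisomies 1 and 13. By level, the order was trisomy 1, trisomy 13, trisomy 16 (mean 4.10 ± 0.40, SD, n = 3), trisomy 19 and controls. The trisomy 19 array lay inside the range of trisomy 16 and 0.16 above the highest control, and trisomy 16 overlapped the controls through 1 line.

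Sncb gave no signal above background in any group. Its values were 1.88 in trisomy 1, 2.03, 1.88, 1.91 and 1.92 in trisomy 13, 1.88, 1.86 and 1.87 in trisomy 16, and 1.98 in trisomy 19, against 1.85 to 1.88 in controls. All 4 trisomy 13 arrays and the trisomy 19 array lay above the highest control, but the lowest of trisomy 13 did so by only 0.001. The probe set failed the filter, so no fold change was computed for this gene of the extra chromosome 13.

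Of the stathmins, Stmn2 differed most between lines. The higher of its 2 probe sets had 11.32, 11.66, 10.70 and 12.35 in trisomy 13 and 9.13, 3.83 and 5.29 in trisomy 16. It had 6.35 in trisomy 1 and 9.16 in trisomy 19, against 6.15 to 9.74 in controls (median 8.98). All trisomy 13 lines were above all controls and all trisomy 16 lines, and 2 of 3 trisomy 16 lines were below all controls, as were at least 2 of 3 for 7.52% of tested genes. Trisomy 1 and trisomy 19 lay inside the control range.

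Trisomy 13 averaged 11.51 ± 0.69 (SD, n = 4), trisomy 16 6.08 ± 2.74 (n = 3) and controls 8.41 ± 1.33 (n = 9). The difference of trisomy 13 minus trisomy 16 was 5.43 ± 1.06 (log2, SE), which ranked 3 from the top among 7382 genes. Its rank does not test it, since the gene was chosen for it, and 7.17% of tested genes had all trisomy 13 arrays above all trisomy 16 arrays. Against controls trisomy 13 was higher by 3.10 ± 0.84, which ranked 4 from the top, and trisomy 16 was at -2.33 ± 0.93. The trisomy 16 difference depended on its lines: it was -3.85 without replicate 1, which is 3'-biased and was the high line at 9.13, and -1.20 without replicate 2. In trisomy 19, which did not enter the choice, Stmn2 was at 0.75 ± 1.46 against controls (limma adjusted p = 1), and in trisomy 1 at -2.06 ± 1.46. By level the order was trisomy 13, trisomy 19, control, trisomy 1 and trisomy 16, and only trisomy 13 stood clear of its neighbour's range.

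Both probe sets of Stmn2 placed trisomy 13 above all other groups. The lower one had 8.84, 9.30, 7.89 and 10.46 in trisomy 13, 7.25, 2.41 and 2.91 in trisomy 16, 3.30 in trisomy 1 and 6.55 in trisomy 19, against 3.38 to 7.78 in controls. On this probe set the trisomy 1 line was below all controls, whereas on the higher one it was inside their range. Over the 18 arrays the probe sets had a Pearson correlation of 0.96 and a Spearman correlation of 0.95, and 0.95 (Pearson) over the 15 arrays that were not 3'-biased. These arrays share their RNA and labelling, so the correlation describes agreement of 2 readings of the same samples. On the lower probe set, 6 of 9 controls, 4 of 4 trisomy 13 lines and 1 of 3 trisomy 16 lines reached 4. Trisomy 13 minus trisomy 16 was 4.93 there and trisomy 13 minus control 3.51.

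**Figure D2:**
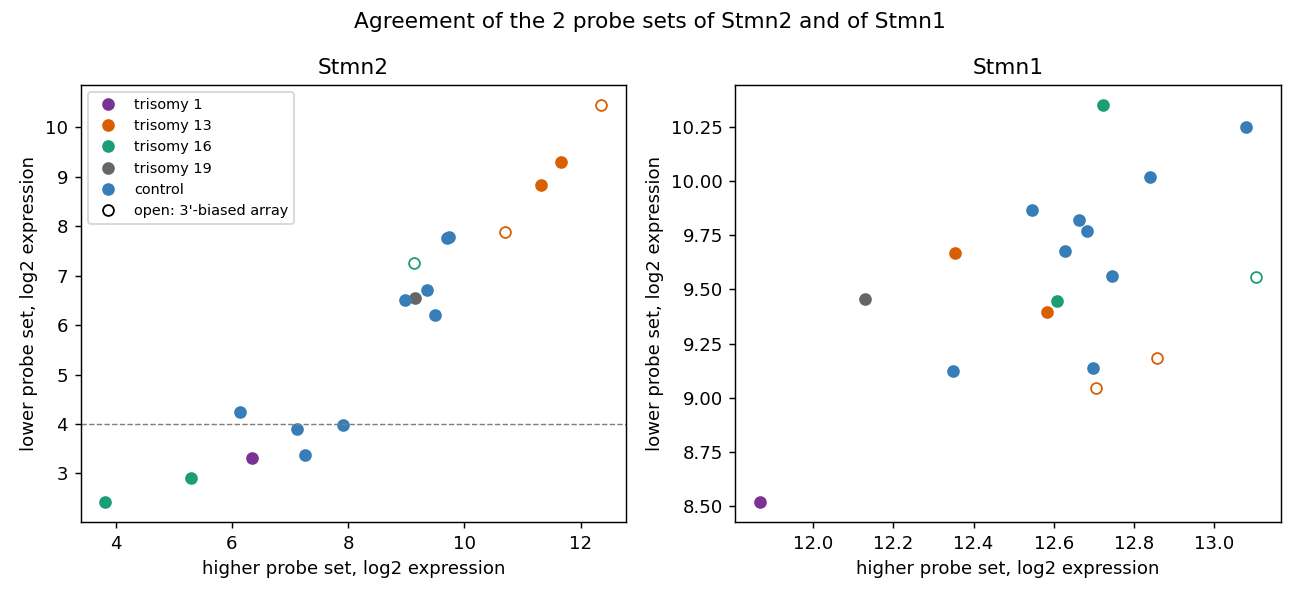
Log2 expression of the higher probe set (x axis) against the lower probe set (y axis) of Stmn2 (left) and Stmn1 (right), 1 circle per array coloured by group, with open circles for 3'-biased arrays and a dashed line at 4. For Stmn2 the points follow 1 line (Pearson 0.96), with trisomy 13 at its upper end; for Stmn1 they scatter more (Pearson 0.55) and the trisomy 1 array is lowest on both axes.

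Since every trisomy 13 line lay above every control for Sncg and Stmn2, their direction there was fixed beforehand. Only sizes are described here, beside control lines with the same first number. Sncg exceeded the mean of these controls (1 or 2 lines each) by 1.18 to 1.86 in trisomy 13, and by 2.42 in trisomy 1. Stmn2 exceeded it by 1.97, 2.96, 2.00 and 2.66 in trisomy 13. In trisomy 16 Stmn2 differed from this mean by 0.63, -2.32 and -3.21. Beside the control of the same replicate number all 3 lines were lower, at 9.13, 3.83 and 5.29 against 9.74, 6.15 and 7.25. The lower probe set gave 7.25, 2.41 and 2.91 against 7.78, 4.25 and 3.38. The trisomy 19 line was 2.04 above its control (7.12) and the trisomy 1 line 2.63 below its control (8.98). With the first number as a block in the fit, Stmn2 was at 2.40 in trisomy 13 and -1.63 in trisomy 16 against controls.

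**Figure D3:**
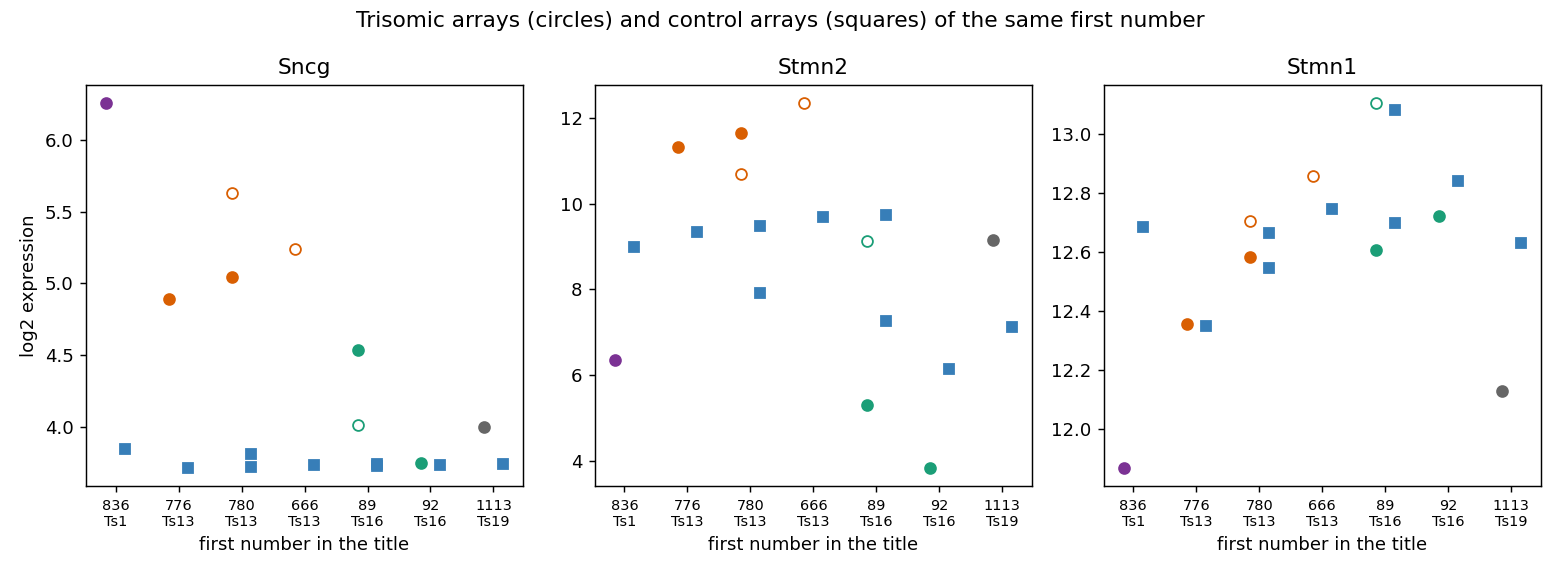
Log2 expression of Sncg, Stmn2 and Stmn1 by the first number in the line titles (x axis, with the trisomy of that number), with trisomic arrays as circles (open if 3'-biased) left of control arrays as squares; each panel has its own y axis that does not start at 0. Each gene is drawn for its probe set with the highest mean. Sncg and Stmn2 circles of trisomy 13 are above all squares of any number, so also above those of their own number. Stmn1 in trisomy 13 differs from the mean of the squares of the same number by at most 0.11. On its second probe set, not drawn, Stmn1 differs by 0.54, -0.45, -0.80 and -0.38 in trisomy 13.

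Stmn1, the stathmin of dividing cells, was high in every line, at 11.87 to 13.10 on its higher probe set. Its higher probe set had 11.87 in trisomy 1, 12.35, 12.58, 12.71 and 12.86 in trisomy 13, 13.10, 12.72 and 12.61 in trisomy 16, and 12.13 in trisomy 19. Controls ran from 12.35 to 13.08, with a median of 12.68. The trisomy 1 and trisomy 19 lines were below every control, while all 4 trisomy 13 lines were inside the control range and trisomy 16 replicate 1 was just above it. With a single array, 10.3% of tested genes were below all controls in trisomy 1 and 11.9% in trisomy 19.

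The difference from controls was 0.12 ± 0.15 in trisomy 16 (n = 3 against 9, limma adjusted p = 0.86) and -0.56 ± 0.24 in trisomy 19 (n = 1 against 9, limma adjusted p = 1). Neither passed the threshold, which 0.0406% of genes did in trisomy 16 and 0% in trisomy 19. In trisomy 19, limma called 0 genes, with 145 at an unadjusted p under 0.05. In trisomy 16 the difference was -0.03 without the 3'-biased arrays and 0.32 with equal array medians. Trisomy 1 was at -0.83 ± 0.24 and trisomy 13 at -0.07 ± 0.14, as descriptions, and with equal array medians trisomy 13 was at 0.23. The lone arrays of trisomies 1 and 19 borrow their spread from the groups with replicates.

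The second probe set of Stmn1 agreed less well. It had 8.52 in trisomy 1, 9.05 to 9.67 in trisomy 13, 9.45 to 10.35 in trisomy 16 and 9.45 in trisomy 19, against 9.13 to 10.25 in controls. On it, too, trisomy 1 was below all controls (-1.17), whereas trisomy 19 was inside their range and 1 trisomy 13 line, at 9.05, was under it. The trisomy 13 difference from controls was -0.37 on this probe set. The gap between the 2 probe sets was 3.55 to 3.67 on the 3'-biased arrays and 2.37 to 3.56 on the other 15, and their correlation was 0.55 (Pearson, 18 arrays) and 0.75 without the 3'-biased arrays. The part of RNA quality in this gap was not tested. The suffix of the higher probe set, s_at, marks on Affymetrix arrays that its probes match several transcripts.

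Stmn3 and Stmn4, the neuronal stathmins best known from brain, were at background. The higher probe set of Stmn3 had 2.65 in trisomy 1, 2.42 to 3.31 in trisomy 13, 2.63 to 2.75 in trisomy 16 and 2.71 in trisomy 19, against 2.62 to 4.06 in controls. Only control replicate 3 reached 4 on it. The other probe set stayed between 2.35 and 3.52 over all arrays, and the pair had a Pearson correlation of 0.15. Stmn4 stayed between 1.81 and 1.90 on all 18 arrays. Of the 6 genes 3, Sncg, Stmn1 and Stmn2, passed the filter, while Sncb, Stmn3 and Stmn4 got no fold change.

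Pairs of the 3 tested members had low correlations, which describe arrays that share groups and RNA quality. Over 18 arrays the Pearson correlation was 0.27 for Sncg with Stmn2 (Spearman 0.18), -0.42 for Sncg with Stmn1 (Spearman -0.15) and 0.10 for Stmn1 with Stmn2 (Spearman 0.06). The trisomy 1 array was the highest of all for Sncg, inside the control range for Stmn2 and the lowest of all for Stmn1.

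The other genes with the most similar pattern over the 18 arrays were found by Pearson correlation among the 7382 tested genes. For Stmn2 they were Cavin4 (0.87), Bpgm (0.87), Prr14 (0.87), Mapk12 (0.86) and Washc2 (0.85), and over the 15 arrays that were not 3'-biased these stayed between 0.84 and 0.88. For Stmn1 they were Selenoh (0.86), Tinf2 (0.85), Zfp386 (0.85), Ndufs7 (0.85) and Ndc80 (0.83). For Sncg they were Gipc2 (0.88), H1f2 (0.86), Adipor1 (0.84), Tmbim1 (0.82) and Cystm1 (0.80). Of the Sncg neighbours, Adipor1 and Tmbim1 are on chromosome 1 and H1f2 on chromosome 13. Sncg was chosen for being high in lines with an extra copy of these chromosomes, so such neighbours can come from the choice alone. Chromosome 13 held 277 of the 7382 tested genes, and the share of chromosome 1 was not counted. Spearman correlations for Sncg were lower, at 0.51 to 0.73. The arrays share group and RNA quality, and these correlations only rank likeness.

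Microtubule genes that stathmins act with were counted next. Over 4 lists (tubulins, microtubule regulators, regulators of stathmins, and partners of synucleins) 72 genes were tested. In trisomy 13, 3 of these rose and 0 fell, where 1.1% of all tested genes rose (81 genes) and 0.664% fell (49 genes). Equal array medians, which add 0.29 to every gene in this comparison, made these 108 and 15. They were Tubb2a, a beta-tubulin (0.80 ± 0.13, limma adjusted p = 0.0058), and the tubulin-folding cofactors Tbca (0.59 ± 0.13, limma adjusted p = 0.036) and Tbce (1.07 ± 0.25, limma adjusted p = 0.042). All 3 lie on chromosome 13, of which 7 listed genes were tested. Of the tested genes of chromosome 13, 14.4% rose in trisomy 13, against 0.577% of the genes elsewhere.

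Tubb2a was at 13.25 to 13.55 in trisomy 13, above all controls at 12.25 to 12.85. Tbca was at 14.34 to 14.75 in trisomy 13 and 13.61 to 14.25 in controls, also without overlap, and Tbce at 10.40 to 11.51 against 9.52 to 10.21. A gene that followed its copy number would be at 0.58, the log2 of 1.5. The other 4 listed genes of chromosome 13, named after their values were seen, were Kif2a (0.70), Tubb2b (0.55), Plk2 (0.79) and Map1b (0.10), and their adjusted p lay between 0.13 and 0.93. Without the 3'-biased arrays, 0 of the 3 passed: Tubb2a was at 0.91 (limma adjusted p = 0.051), Tbca at 0.46 and Tbce at 0.59. In trisomies 1, 16 and 19, 0 genes of these 4 lists passed limma's test, where 0.0406%, 0.0406% and 0% of all genes did. At an unadjusted p under 0.05 there were 464, 516 and 145 genes in all.

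**Figure D4:**
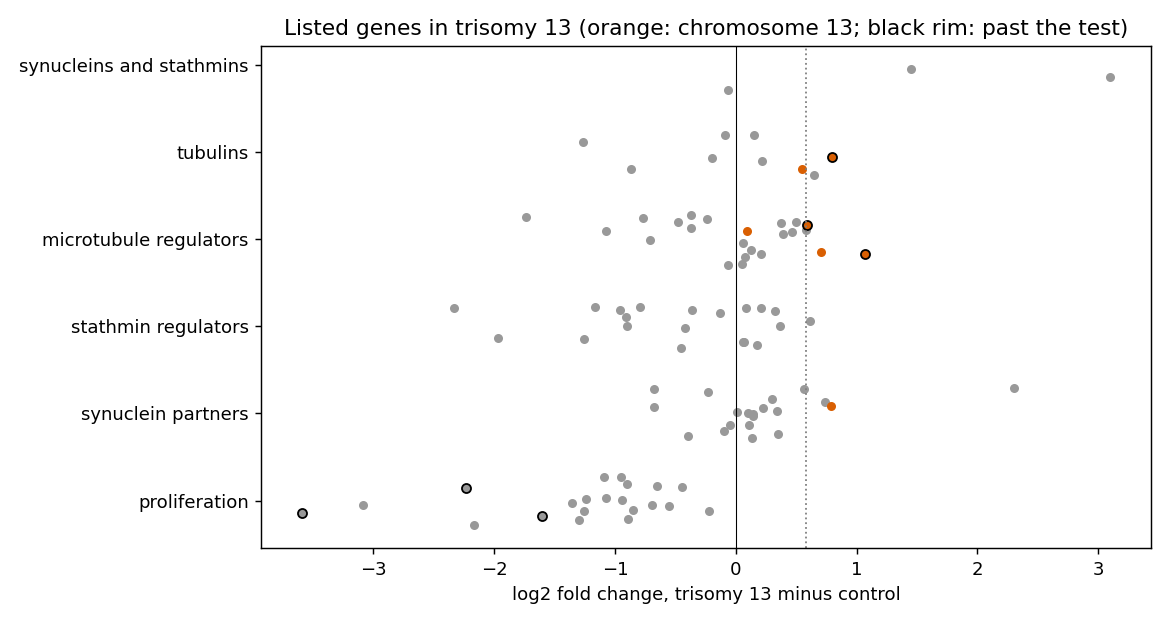
Log2 fold change in trisomy 13 minus control (x axis) of the tested genes of each list (rows), 1 circle per gene; orange marks genes of chromosome 13, a black rim marks genes past the test (not drawn for the synucleins and stathmins, which were not tested here), and the dotted line is a 1.5-fold change. Stmn2 (3.10) and Sncg (1.45) were chosen by values that include trisomy 13, so their place beside the lists is only a description. Stmn1 (-0.07) is near 0, while all 21 proliferation genes are left of 0.

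List by list, 1 of 9 tubulins rose in trisomy 13 (median of the list 0.15, against 0.01 over all genes) and 2 of 23 microtubule regulators (median 0.07). Of 20 regulators of stathmins (kinases, palmitoyl transferases and transcription factors) 0 rose and 0 fell in trisomy 13, with a median of -0.39, and the same held for 20 synuclein partners, with a median of 0.14. Between trisomy 13 and trisomy 16, where 1.33% of all genes were called higher and 1.1% lower, Tubb2b (1.24 ± 0.27, limma adjusted p = 0.022), Tbca (0.77 ± 0.17, limma adjusted p = 0.025) and Plk2, a kinase that phosphorylates synucleins (1.59 ± 0.37, limma adjusted p = 0.033), were higher in trisomy 13. Without the 3'-biased arrays, 0 tubulins, 0 microtubule regulators and 1 synuclein partner passed in this comparison. Tubb2b, Tbca and Plk2 are on chromosome 13, where 11.2% of tested genes were called higher, against 0.943% elsewhere.

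Stmn1 was set beside genes of cell division because it belongs to dividing cells. Of 21 proliferation genes, 21 were below the control mean in trisomy 13 (median -1.08), against 48.8% of all tested genes (median 0.01). Of these 3 fell, where 0.664% of all tested genes did. These were the replication gene Mcm5 (-2.23 ± 0.43, limma adjusted p = 0.016) and the mitotic kinases Bub1b (-1.61 ± 0.35, limma adjusted p = 0.033) and Aurka (-3.59 ± 0.88, limma adjusted p = 0.049). Stmn1 was at -0.07 in this comparison on its higher probe set and at -0.37 on its second. Mcm5 and Bub1b were also lower in trisomy 13 than in trisomy 16. There 21 of 21 were lower (median -1.49), against 47.4% of all tested genes (median 0.03). Without the 3'-biased arrays 0 of 21 passed in that comparison. In trisomy 1 all 21 were below the control mean (median -1.01) with 0 past the test, against 44.7% of all tested genes below it (median 0.05). Stmn1 was at -0.83 there. In trisomy 16 the median was 0.25, with 18 of 21 above the control mean, against 44.2% of all tested genes (median -0.05). Stmn1 was at 0.12 there. In trisomy 19 the median was -0.50, with 19 of 21 below the control mean, against 61.2% of all tested genes (median -0.08). Stmn1 was at -0.56 there. Without the 3'-biased arrays the trisomy 13 median was -0.95 with 0 genes past the test, and Stmn1 was at -0.22. The part of cell division in the Stmn1 level was not tested.

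Markers of nerve cells were looked at because Stmn2, Sncg, Stmn3 and Sncb are used as neuronal genes. Of 31 measured neuron markers, 21 were below 4 on all 18 arrays, among them the neurofilament genes Nefl, Nefm and Nefh, the synaptic genes Syp, Syn1, Syt1 and Snap25, and Dcx, Elavl3, Elavl4 and Rbfox3. The 7 with a mean of at least 4 were Tubb3, Gap43, Elavl2, Uchl1, Eno2, Ncam1 and Celf4, which other cells can also express. Summed over the list, neuron markers were at 12.88 in trisomy 1, 11.91 to 12.58 in trisomy 13, 11.28 to 11.78 in trisomy 16 and 11.90 in trisomy 19, against 11.11 to 12.36 in controls (log2 of the sum). Of the 7 tested, 7 were above the control mean in trisomy 1 and 5 in trisomy 13, and 0 passed the test in either (medians 2.08 and 0.43). Over all tested genes, 55.3% were above it in trisomy 1 and 51.2% in trisomy 13 (medians 0.05 and 0.01). The trisomy 1 sum was above the control range, as was the highest trisomy 13 sum. The epithelial and skeletal muscle sums of trisomy 1, given below, were also above their control ranges. So were the epithelial sum of trisomy 19 and the highest skeletal muscle sums of trisomies 13 and 16. In trisomy 13 minus trisomy 16, the contrast in which Stmn2 stood out, 6 of the 7 neuron markers were higher in trisomy 13 (median 0.65) and 0 passed the test. There 52.6% of all tested genes were higher in trisomy 13 (median 0.03). The part of such cells in the Sncg and Stmn2 values was not tested. Of 13 measured glia and neural crest markers, 6 were below 4 on all arrays (Sox10, S100b, Gfap, Foxd3, Erbb3 and Ngfr) and 6 had a mean of at least 4 (Mbp, Nes, Fabp7, Pax3, Tfap2b and Egr2). Of the tested ones 5 of 6 were higher in trisomy 13 than in trisomy 16 (median 1.01), against 52.6% of all tested genes. Without the 3'-biased arrays 5 of 5 tested ones were higher (median 2.21), with 0 past the test in either fit. The summed glia and neural crest list was at 10.51 in trisomy 1, 10.58 to 11.54 in trisomy 13, 8.29 to 10.70 in trisomy 16 and 10.73 in trisomy 19, against 8.09 to 11.84 in controls. The part of these cells in the Stmn2 values was not tested.

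Fat cells, which also make gamma-synuclein, had 7 of 10 measured markers below 4 on all arrays, among them Adipoq, Cebpa and Lep. The summed adipocyte list was at 9.26 in trisomy 1, 9.07 to 10.34 in trisomy 13 and 10.84 to 11.32 in trisomy 16 and 11.36 in trisomy 19, against 8.68 to 11.45 in controls. In trisomies 1 and 13 it lay inside the control range, and its part in the Sncg values was not tested. The summed macrophage list was at 6.69 in trisomy 1 and 6.92 to 10.72 in trisomy 13, against 6.68 to 10.09 in controls, and the endothelial list at 7.04 and 6.72 to 7.55, against 6.52 to 7.43. The macrophage and endothelial sums of trisomies 16 and 19 lay inside their control ranges. The epithelial list was at 8.71 in trisomy 1 and 6.85 to 7.76 in trisomy 13, against 5.91 to 8.17 in controls. It was at 7.09 to 8.11 in trisomy 16 and 8.95 in trisomy 19. The skeletal muscle list was at 12.34 in trisomy 1 and 9.86 to 12.49 in trisomy 13, against 8.75 to 11.95 in controls. It was at 11.39 to 12.34 in trisomy 16 and 10.41 in trisomy 19, with Myod1 and Myog below 4 on all arrays. The fibroblast list was at 18.61 in trisomy 1 and 18.25 to 18.52 in trisomy 13, against 18.35 to 18.67 in controls. It was at 18.40 to 18.75 in trisomy 16 and 18.63 in trisomy 19. Of all marker genes 1 passed limma's test in any comparison, the fibroblast receptor Pdgfra, which was lower in trisomy 13 than in trisomy 16 (-2.06 ± 0.46, limma adjusted p = 0.027), as 1.1% of all tested genes were. Without the 3'-biased arrays, 0 fibroblast markers passed there. In such bulk RNA, fewer cells of a type and less RNA per cell cannot be told apart.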

How the data were processed

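RNA of 18 MEF lines, extracted with Trizol, was hybridised to Affymetrix arrays as biotin-labelled cRNA, per the labels' protocols. The deposited values are log2 expression values per probe set, which the authors made with affy and GCRMA, per the submitters' processing notes. Their versions and settings are not stated there.

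Of 22690 probe sets, 20393 are listed with exactly 1 gene, 691 with several and 1606 have no entry. Chromosomes came from RefSeq (GRCm38.p6) by Entrez identifier, which 12370 of 12394 genes matched. The probe set with the highest mean represented a gene, and 7382 genes with a mean of at least 4 were tested with limma 3.58.1 (R 4.3.3; lmFit, eBayes with trend, 5 groups, 13 residual degrees of freedom). Calls are two-sided, with Benjamini-Hochberg adjustment over all tested genes and a threshold of 0.05. Alternatives changed the filter, floor, probe set rule, array medians, trend, blocks and arrays. The procedure was tested on simulated data.

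The named genes are all members, the 5 genes most correlated with each tested member, and up to 4 genes per list past the test in the order of p. Members and lists were chosen with earlier results of these data known. Trisomy 16 and control lines of the same replicate number deviated together (correlations 0.52, 0.41 and 0.58), so these numbers were taken to pair them. For trisomy 13 the correlations by replicate number were -0.26 to -0.03, with controls of other first numbers. With controls of the same first number they were -0.10 to 0.36.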

Additional observations from a re-analysis of the deposited data

Results flagged for a closer look

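Values of 9 probe sets were screened in the trisomy 13 and control groups for a sample that stands far from the others, 18 groups in all, of which chance would flag about 1 in 20. Of these 2 were flagged, both for Stmn3 in controls. On the higher probe set, control replicate 3 was at 4.06, which is 1.38 above the next of the 9 controls. On the other probe set, control replicate 5 was at 3.03, which is 0.46 above the next. The probe sets flagged different lines, and both values are near background.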

How the results depend on the processing

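The counts of genes past the test, beside which the members are read, depended on the settings, whereas the tests of Stmn1 in trisomies 16 and 19 and of Stmn2 in trisomy 19 stayed short of the threshold under every alternative run. For trisomy 1, the 3 genes became 45 with no filter, 45 with values under 4 set to 4, 1 with the mean of all probe sets, 1 with equal array medians, 5 without the 3'-biased arrays, 6 without the trend and 0 with either replicate block; single arrays left out gave 3 to 14 (without control replicate 9). For trisomy 13, the 130 became 14 without the 3'-biased arrays, 6 with the first number as replicate block and 9 with the replicate number, and 26 to 734 with single arrays left out: 310, 734, 41 and 26 without trisomy 13 replicates 1 to 4, 210 without trisomy 16 replicate 1, and 80, 77, 78, 77 and 63 without control replicates 3, 5, 6, 7 and 8. For trisomy 16, the 3 became 8 with no filter, 13 with values set to 4, and 0 with equal medians, without the 3'-biased arrays and with each replicate block, and ran from 0 (without trisomy 16 replicate 1) to 7 (without trisomy 16 replicate 3 or control replicate 1; 6 without trisomy 13 replicate 4 or control replicate 9). For trisomy 19, the 0 became 40 with no filter and 21 with values set to 4, and stayed 0 with single arrays left out. For trisomy 13 minus trisomy 16, the 179 became 64 with equal medians, 24 without the 3'-biased arrays, 1 with the first number and 0 with the replicate number as block, and ran from 24 (without trisomy 16 replicate 2) to 349 (without trisomy 16 replicate 1), with 116 and 66 without trisomy 13 replicates 3 and 4. Its 98 higher and 81 lower genes became 32 and 32 with equal medians, which add 0.09 to every gene in this comparison. In trisomy 16 minus control, equal medians add 0.20 to every gene. Stmn1 in trisomy 16 (0.12) turned to -0.028 without the 3'-biased arrays. It was -0.062 in the blocked fits by first number and over the paired lines alone, and 0.324 with equal array medians. With single arrays left out it ran from -0.028 (without trisomy 16 replicate 1) to 0.221. Stmn2 in trisomy 19 (0.75) turned to -0.34 with the replicate number as block and was 2.035 with the first number as block. Outside trisomy 16 the replicate number joins trisomic lines with controls of other first numbers, also in the counts above. Its values there do not describe pairs of the same first number. Sncg in trisomy 13 (1.45) was 1.20 with values set to 4, 1.75 with equal medians, 1.22 without the 3'-biased arrays and 1.46 with the first number as block; Stmn2 in trisomy 13 minus trisomy 16 (5.43) was 4.03 with that block and ran from 4.30 to 6.95. The cause was not tested. The blocked fit over the paired lines and the second probe sets were added after seeing the data.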
